A study of Mus musculus with 6 samples.

Results

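The endoplasmic reticulum (ER) is where hepatocytes fold and oxidise the plasma proteins that they secrete, and 42 genes of its quality control were followed here in primary mouse hepatocytes treated with the inflammatory cytokine IL-1β. They were taken by gene symbol from a table of 23282 genes and comprise ER chaperones, enzymes of disulfide bond formation, components of ER-associated degradation (ERAD) and sensors of the unfolded protein response (UPR). All 42 were found, Selenos under its older symbol Vimp through its Entrez identifier, and all 42 had enough reads to be among the 11657 genes tested. The hepatocytes came from livers of C57BL6/N mice with no transgene or deletion named in the labels, were freed by collagenase perfusion and plated, and were then left without treatment (control, 3 samples) or given recombinant IL-1β protein for 24 h (3 samples). The dose given to the sequenced cultures, the age of the mice and whether the samples of a group came from different animals are not given in the sources used here, so the p-values measure the spread between these samples, which may be technical. RNA was read by QuantSeq, a method that counts mRNAs by their 3′ ends, and levels are given as CPM, each gene's count relative to its library's total after TMM scaling.

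In the resting ER, the HSP70 chaperone BiP binds unfolded proteins and also the lumenal domains of the sensors IRE1 (Ern1), PERK (Eif2ak3) and ATF6. When unfolded proteins accumulate, IRE1 splices the mRNA of Xbp1 into the form that encodes an active transcription factor, PERK phosphorylates the translation factor eIF2α, and ATF6 moves to the Golgi, where proteases release its transcription factor domain. These factors raise the transcription of chaperones and of ERAD genes, whose products return misfolded proteins to the cytosol for degradation. ATF6 and XBP1 act on promoters through the ER stress response element, which joins a CCAAT box, bound by NF-Y, to a CCACG box at a fixed spacing. Counts of 3′ ends do not separate spliced from unspliced Xbp1 mRNA and do not measure phosphorylation or cleavage, so only mRNA levels of the sensors were available.

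The promoter windows in RefSeq (build GRCm38.p6, 250 bases before to 50 bases after each annotated start) held the element in many of these genes. Windows were found for 36 of the 42 genes; Atf6, Ppp1r15b, Hyou1, Manf, Derl1 and Erlec1 were not matched. The full element ERSE, written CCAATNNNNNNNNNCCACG and searched on both strands without mismatches, stood in 10 of the 36, and its shorter form ERSE-II, which is ATTGG, 1 base of any kind and CCACG on either strand, in another 2. Among the 9175 tested genes that had a window, 17 or 0.185% held ERSE and 8 or 0.0872% held ERSE-II. The core of the XBP1 site, TGACGTGG, occurred in Vcp alone of the 36 genes and in 1.01% of the tested genes. The genes had been gathered from knowledge of the UPR, which includes these elements. Below, each match is written on the strand of its gene with the boxes in capitals and the spacer in lower case, and a match on the opposite strand begins with CGTGG.
Hspa5: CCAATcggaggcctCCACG
Hsp90b1 (upstream): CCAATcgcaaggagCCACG
Hsp90b1 (downstream): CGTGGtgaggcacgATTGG
Calr: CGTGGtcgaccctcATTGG
Canx: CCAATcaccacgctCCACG
Pdia6: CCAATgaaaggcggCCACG
Creld2: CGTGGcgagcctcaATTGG
Dnajc3: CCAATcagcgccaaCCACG
Syvn1: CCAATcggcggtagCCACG
Ero1lb: CGTGGtcccgcctcATTGG
Derl3: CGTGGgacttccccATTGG
Herpud1 (ERSE-II): ATTGGgCCACG
Dnajb11 (ERSE-II): ATTGGcCCACG

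The whole window is shown for 4 genes, with the matches in capitals, because the log2 fold changes of these genes span those of the 12 genes with an element. Herpud1 and Hspa5 were called higher, and Hsp90b1, with its pair of elements, was also called higher. Dnajc3 holds an element of the same kind and was the gene with the lowest log2 fold change of the 12.
Herpud1, plus strand, chr8:94386179-94386478: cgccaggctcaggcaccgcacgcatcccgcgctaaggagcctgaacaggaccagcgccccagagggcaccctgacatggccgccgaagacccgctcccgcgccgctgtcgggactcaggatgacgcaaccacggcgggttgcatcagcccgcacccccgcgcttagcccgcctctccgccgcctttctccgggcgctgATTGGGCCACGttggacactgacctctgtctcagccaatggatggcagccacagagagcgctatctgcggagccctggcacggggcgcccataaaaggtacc
Hspa5, plus strand, chr2:34771840-34772139: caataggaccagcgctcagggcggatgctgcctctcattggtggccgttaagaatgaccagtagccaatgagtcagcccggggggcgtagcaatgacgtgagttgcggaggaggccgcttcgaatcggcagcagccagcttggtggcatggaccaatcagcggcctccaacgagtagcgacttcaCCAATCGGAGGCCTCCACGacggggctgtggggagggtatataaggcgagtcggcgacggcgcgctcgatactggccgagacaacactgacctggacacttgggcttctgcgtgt
Hsp90b1, minus strand, chr10:86705395-86705694: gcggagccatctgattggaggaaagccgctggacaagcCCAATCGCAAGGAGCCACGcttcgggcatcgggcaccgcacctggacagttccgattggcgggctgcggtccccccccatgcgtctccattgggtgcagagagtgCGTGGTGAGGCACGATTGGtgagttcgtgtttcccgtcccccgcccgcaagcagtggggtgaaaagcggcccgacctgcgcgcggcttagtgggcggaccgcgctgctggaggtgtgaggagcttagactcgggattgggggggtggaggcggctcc
Dnajc3, plus strand, chr14:118937682-118937981: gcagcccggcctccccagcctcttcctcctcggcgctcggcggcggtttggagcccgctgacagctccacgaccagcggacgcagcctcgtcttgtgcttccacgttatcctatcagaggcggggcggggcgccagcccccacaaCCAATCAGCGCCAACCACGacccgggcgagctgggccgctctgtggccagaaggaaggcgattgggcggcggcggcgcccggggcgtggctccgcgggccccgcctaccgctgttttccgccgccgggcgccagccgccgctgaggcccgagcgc

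The element lay at various distances from the start. Its first base was 44 bases upstream in Syvn1, 52 in Herpud1, 65 in Hspa5 and 98 in Pdia6, and at most 212 bases upstream, in the distal element of Hsp90b1. In Dnajb11 it began at base 8 of the transcript. These distances are from the RefSeq start. The Herpud1 interval given with the counts begins at 94386500, past the end of its promoter window at 94386478. Of the 12 genes with either element, 5 were higher after IL-1β and 0 lower by the edgeR test described next (1, Dnajc3, lower at an unadjusted p below 0.05 and with DESeq2), with a median log2 fold change of 0.22. Of the 24 genes whose window held neither, 5 were higher and 1 lower, with a median of 0.11. Genes without a matched window are in neither count. Of these, Manf (0.81) and Hyou1 (0.41) were called higher, and Atf6, Ppp1r15b, Derl1 and Erlec1 were not called. Over all genes tested, 6.97% were higher and 6.44% lower. The difference between the 12 and the 24 genes was not tested. These counts are descriptions, and a window without a match says only that these exact letters were not in it.

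**Figure D1:**
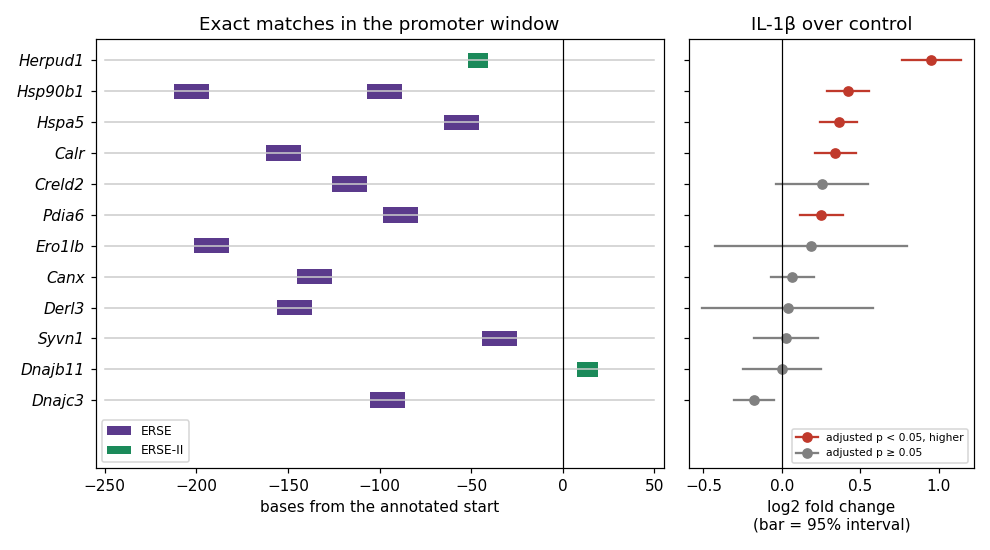
Positions of exact ERSE (purple) and ERSE-II (green) matches in the window from 250 bases before to 50 bases after the annotated start (left, in bases, grey lines are the windows), beside the log2 fold change of each gene between IL-1β and control (right, points with 95% confidence intervals, n = 3 per group). The elements reach 212 bases upstream of the start among the 5 genes past the threshold (red) and 201 bases among the other 7 (grey), and the element of Dnajb11 lies just downstream of it.

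IL-1β was compared with control by the quasi-likelihood test of edgeR over all 11657 genes, with Benjamini-Hochberg adjustment. Past an adjusted p of 0.05, 12 of the 42 genes (28.6%) were higher and 1 (2.38%) was lower. Of all genes tested, 6.97% were higher and 6.44% lower. The median log2 fold change was 0.14 over the 42 genes and -0.002 over all genes. The log2 fold change was above 0 for 34 of the 42 genes, and for 27 when libraries were scaled by total counts alone. That scaling called 9 of the 42 higher and 2 lower, and it turned the calls over all genes from 812 higher and 751 lower to 662 higher and 1008 lower.

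The rises were small, since Herpud1 and Manf alone passed a fold change of 1.5. The groups did not overlap in 18 of the 42 genes, against 28.2% of all genes. In 16 genes (38.1%) every IL-1β sample was above every control, against 14% of all genes, and in 2 genes (4.76%) every IL-1β sample was below, against 14.2%. For a single gene, the lowest two-sided p that an exact permutation test of 3 against 3 samples allows is 0.1. The calls of Herpud1, Manf, Hsp90b1, Hyou1, Hspa5, Calr and Pdia6 held when any single sample was left out, while those of Xbp1, Ppp1r15a, Sdf2l1, Uggt1, Pdia3 and Pdia5 did not in every such fit. When each gene's own variance was used on log2(CPM + 1), without sharing variance between genes, 4 of the 12 were called higher, namely Herpud1, Hspa5, Hyou1 and Uggt1.

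**Figure D2:**
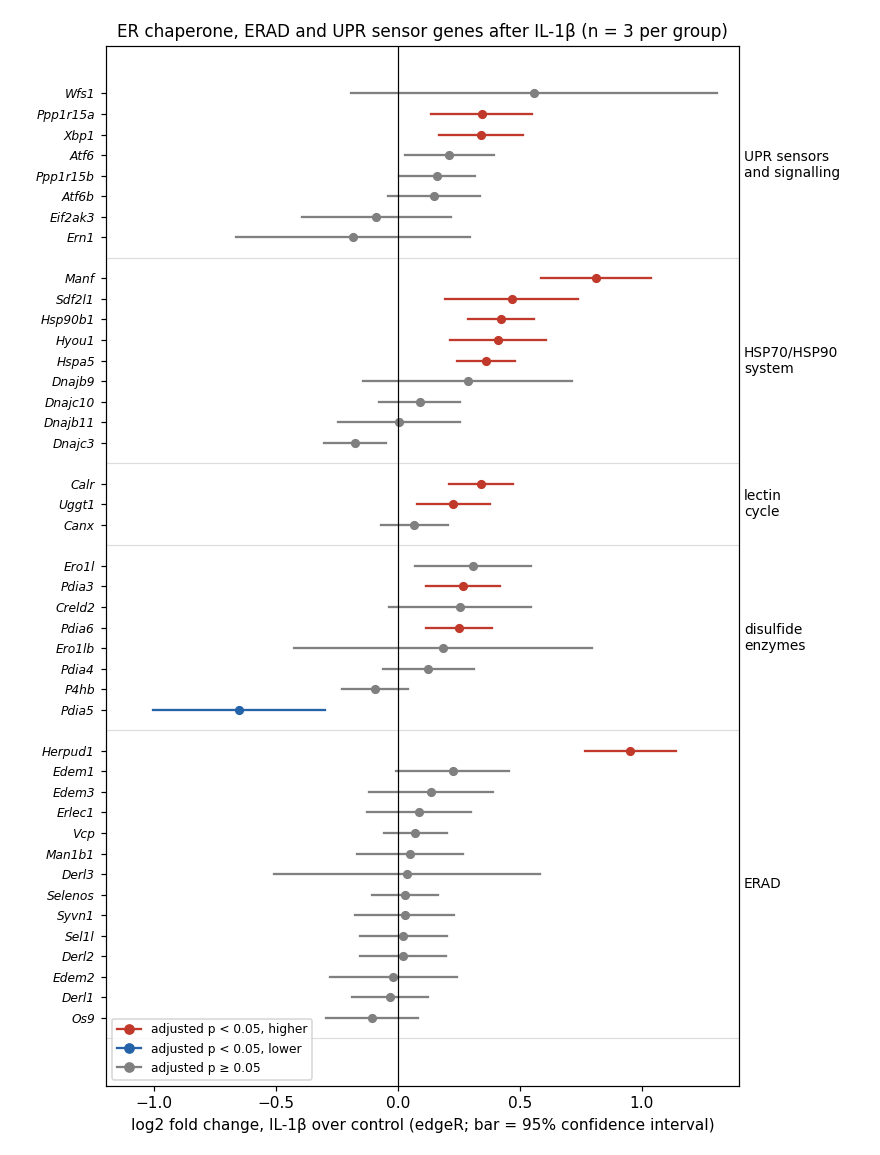
Log2 fold change of IL-1β over control for the 42 genes by role (points, edgeR; bars, 95% confidence intervals; n = 3 per group). The 12 genes called higher (red) lie between 0.23 and 0.95, 5 of them in the HSP70 and HSP90 system, and Pdia5 (blue) lies at -0.65, whereas 13 of 14 ERAD genes (grey) lie within 0.23 of 0.

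Total counts ranged from 9538741 to 11105408 per library, at which 3 counts, taken as the floor of detection for counting error only, correspond to 0.268 to 0.320 CPM. Every one of the 42 genes had at least 15 counts in every library. The labelled cell type was checked with markers: 7 hepatocyte markers, among them Alb at 16183 ± 515 CPM (SD, n = 3) in the controls, were abundant. Their summed level was 26859 to 26957 CPM in the controls and 22672 to 24345 CPM after IL-1β, and 6 of the 7 were lower. The summed level of 10 Kupffer cell and macrophage markers was 231 to 266 CPM in the controls and 235 to 264 CPM after IL-1β, with 0 of them called in either direction by edgeR. Most of that sum was Cd68, at 192 ± 17.3 CPM in the controls and 184 ± 12.3 CPM after IL-1β (SD, n = 3 per group), whereas Clec4f, Vsig4, Timd4 and Adgre1, which mark Kupffer cells more closely, had means of at most 1.33 CPM in either group. At an unadjusted p below 0.05, Marco alone was higher, at 3.98 ± 1.19 CPM in the controls and 6.33 ± 0.988 CPM after IL-1β (SD, n = 3 per group), and 3 of the 10 had too few reads to be tested. The 6 endothelial markers summed to 44.2 to 49.3 CPM in the controls and 44.2 to 47.0 CPM after IL-1β, but moved in opposite directions. Lyve1 was higher, at 1.37 times the control level, and Clec4g and Kdr were lower, at 0.136 and 0.356 times. Stab2, at 0.447 times, was lower only at an unadjusted p below 0.05. The 7 stellate cell markers summed to 20.2 to 23.7 CPM and 21.3 to 26.6 CPM. Of 6 plasma and B cell markers, Cd79a and Tnfrsf17 had 0 counts in all 6 libraries, and the list summed to 64.9 to 73.0 CPM and 53.6 to 64.6 CPM. Of the 4 cholangiocyte markers, Sox9 accounted for nearly all of the summed 128 to 138 CPM and 148 to 158 CPM, and the keratins Krt19 and Krt7 and Epcam were at or near 0. In bulk RNA, fewer cells of a type and less RNA per cell cannot be told apart, and the part of these marker changes in the results below was not tested.

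The chaperones of the HSP70 and HSP90 system gave 5 of the 12 rises. Of 9 genes, 5 were higher and 0 lower by edgeR (1, Dnajc3, was lower at an unadjusted p below 0.05 and 1 by DESeq2), with a median log2 fold change of 0.36. The shares over all genes tested were 6.97% higher and 6.44% lower. Hspa5 encodes BiP, the ER member of the HSP70 family, on chromosome 2 from 34772090 to 34776529 on the plus strand of GRCm38. It stood at 1663, 1817 and 1678 CPM in the 3 controls and at 2230.4, 2143 and 2253 CPM after IL-1β. All 3 treated samples lay above the highest control, and the level went from 1719 ± 84.7 to 2209 ± 58.3 CPM (SD, n = 3 per group), a log2 difference of 0.36 ± 0.058 (SE, adjusted p = 5.4e-05 with edgeR), that is 28.5% more. Hsp90b1 encodes GRP94, the ER member of the HSP90 family, which folds integrins and Toll-like receptors among other clients. Its values were 531, 554 and 473 CPM in the controls and 702, 681 and 706 CPM after IL-1β, a log2 difference of 0.42 ± 0.065 (SE, adjusted p = 3.4e-05 with edgeR). The treated samples again lay apart from the controls, within 24.8 CPM of each other.

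Hyou1 and Manf, whose products bind or serve BiP, rose with it. Hyou1, which encodes the large HSP70-related exchange factor GRP170, had 44.4, 41.6 and 38.7 CPM in the controls and 54.04, 55.2 and 56.6 CPM after IL-1β. The groups did not overlap, and the log2 difference was 0.41 ± 0.096 (SE, adjusted p = 0.00376 with edgeR). Manf encodes a secreted ER protein that binds BiP and is also known as a neurotrophic factor. It went from 44.01, 44.7 and 57.9 CPM to 86.5, 74.4 and 96.5 CPM, with every treated sample above every control, a log2 difference of 0.81 ± 0.11 (SE, adjusted p = 4.5e-06 with edgeR), that is 75.8% more. In 4.72% of the 75-nt windows in the last 500 nt of its annotated transcripts, the Manf sequence also occurs in transcripts annotated to Dcaf1, and the handling of such reads is not given in the sources used here.

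Sdf2l1 encodes a stromal cell-derived factor 2-like protein that forms a complex with ERdj3 in the ER. It had 44.6, 29.7 and 28.99 CPM in the controls and 51.6, 43.6 and 47.6 CPM after IL-1β, so that control 1 lay above the lowest treated sample. The log2 fold change of 0.47 (standard error 0.13, edgeR adjusted p = 0.0177) became 0.70 without control replicate 1, and the adjusted p rose to 0.116 without control replicate 2, to 0.104 without control replicate 3, and to 0.107 or 0.0766 when replicate 1 or replicate 3 of IL-1β was omitted.

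The J-domain cochaperones, which deliver clients to BiP or stimulate its ATPase, did not pass the test. Dnajb9 (ERdj4), a common target of XBP1, had 9.29, 11.1 and 9.46 CPM in the controls and 16.4, 11.04 and 9.1 CPM after IL-1β. Its IL-1β replicate 1 stood apart from the others, and the log2 fold change of 0.29 (adjusted p = 0.456 from edgeR, 95% confidence interval -0.14 to 0.71) became 0.022 without that sample. Dnajb11 (ERdj3) was at 23.8 ± 0.594 and 23.9 ± 0.744 CPM (SD, n = 3 per group), a log2 fold change of 0.002 with an interval of -0.25 to 0.25 that takes either sign under other scalings. Dnajc10 (ERdj5), a reductase that opens disulfide bonds before degradation, had 0.09 (-0.08 to 0.25), with all treated samples above the controls by a few CPM. Dnajc3 (p58IPK), a J-domain protein also known as an inhibitor of PERK, stood at 364, 356 and 349 CPM in the controls and 316, 317 and 313 CPM after IL-1β. Every treated sample was below every control, and the log2 fold change of -0.18 (standard error 0.062) missed the threshold with edgeR at an adjusted p of 0.0598. It passed with DESeq2 (0.0231), upper-quartile scaling (0.0255), total-count scaling (0.0134), a test on the gene's own variance (0.026) and the replicate number as a block (0.0409).

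**Figure D3:**
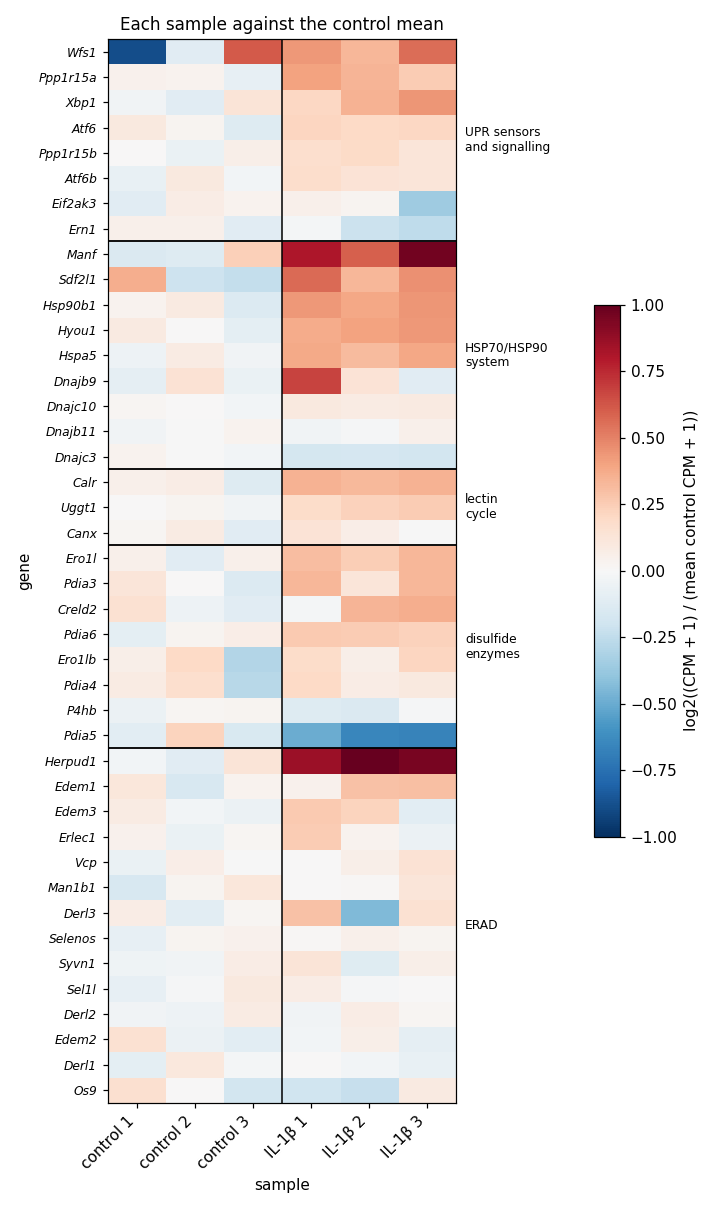
Level of each of the 42 genes in each of the 6 samples, as log2 of (CPM + 1) over (mean control CPM + 1), grouped by role, with the colour scale limited to -1 to 1. The rows of Herpud1, Manf, Hsp90b1, Hyou1 and Hspa5 are red in all 3 IL-1β samples, Pdia5 and Dnajc3 are blue there, and Wfs1 varies among the controls more than between the groups.

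Lectin chaperones hold N-glycosylated proteins while they fold, which many plasma proteins made by hepatocytes need. Of 3 genes, 2 were higher and 0 lower by edgeR (0 lower also at an unadjusted p below 0.05 and with DESeq2), with a median log2 fold change of 0.23. The shares over all genes tested were 6.97% higher and 6.44% lower. Calr encodes calreticulin, the soluble lectin, and had 669, 681 and 592 CPM in the controls and 826, 809 and 825 CPM after IL-1β. The groups did not overlap and the log2 difference was 0.34 ± 0.063 (SE, adjusted p = 3.7e-04 with edgeR). Uggt1 encodes the glucosyltransferase that returns incompletely folded glycoproteins to the lectins. Its values were 111, 113 and 108 CPM and 126, 131 and 132 CPM, a log2 difference of 0.23 ± 0.072 (SE, adjusted p = 0.0379 with edgeR). The treated samples were all above the controls, but the adjusted p was 0.063 to 0.132 in the 5 fits that left out a sample other than control replicate 1, and 0.143 with total-count scaling. Canx, for the membrane-bound lectin calnexin, had a level of 402 ± 27.03 CPM in the controls and 421 ± 20.8 CPM after IL-1β (SD, n = 3 per group). Its groups overlapped, and its log2 fold change of 0.07 (adjusted p = 0.618) had an interval of -0.07 to 0.20, and its promoter holds an ERSE as that of Calr does. The difference between Calr and Canx was not tested.

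Disulfide bonds are formed in the ER by protein disulfide isomerases, which are reoxidised by the ERO1 oxidases. Of 8 genes, 2 were higher and 1 lower, against 6.97% and 6.44% of all genes tested, with a median log2 fold change of 0.22. Pdia3 (ERp57), the isomerase that works with the lectin chaperones, had 444, 409 and 372 CPM in the controls and 514, 445 and 514 CPM after IL-1β. The lowest treated sample exceeded the highest control by 1.37 CPM. The log2 difference was 0.27 ± 0.073 (SE, adjusted p = 0.0133 with edgeR), and the adjusted p was 0.0972 without control replicate 3 and 0.0866 or 0.088 when replicate 1 or replicate 3 of IL-1β was omitted. Pdia6 (P5), an isomerase that acts with BiP, had 246, 268 and 276 CPM and 317, 315 and 309 CPM, with no overlap, a log2 difference of 0.25 ± 0.066 (SE, adjusted p = 0.0097 with edgeR) and an adjusted p of 0.0546 with total-count scaling. The annotated 3′ end of Pdia6 overlaps that of Atp6v1c2 on the other strand, a gene with 9 to 20 counts per library.

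Pdia5, another isomerase of this family, went the other way. It had 14.9, 18.96 and 14.4 CPM in the controls and 11.1, 9.88 and 9.75 CPM after IL-1β, so that all treated samples were below all controls. Its log2 fold change of -0.65 (standard error 0.17, edgeR adjusted p = 0.00972) rests on 103 to 212 counts per library, and the adjusted p was 0.0876 without control replicate 2 and 0.0513 without IL-1β replicate 3. P4hb, which encodes the founding isomerase PDI, and Pdia4 (ERp72) had log2 fold changes of -0.09 and 0.12 with overlapping groups (adjusted p = 0.428 and 0.458). Of the oxidases, Ero1l had 26.6, 23.6 and 26.5 CPM in the controls and 31.8, 30.5 and 32.5 CPM after IL-1β. Its groups did not overlap, but the change of 0.31 on the log2 scale reached an adjusted p of 0.084. Ero1lb, at 3.93 ± 0.833 and 4.48 ± 0.319 CPM, and Creld2, an ER-stress-induced protein with isomerase activity, at 19.2 ± 1.99 and 22.9 ± 3.39 CPM (SD, n = 3 per group), had log2 fold changes of 0.18 (-0.43 to 0.80) and 0.25 (-0.04 to 0.55). That of Ero1lb was 0.028 without control replicate 3 and 0.33 without control replicate 2.

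Of 14 ERAD genes, 1 (7.14%) was higher and 0 lower, against 6.97% and 6.44% of all genes tested. Herpud1 encodes a short-lived membrane protein that joins the ubiquitin ligase HRD1 to the derlins, and lies on chromosome 8 from 94386500 to 94395358, on the plus strand. Its level was 47.02, 44.4 and 52.6 CPM in the controls and 87.9, 97.2 and 93.5 CPM after IL-1β, the largest log2 fold change of the 42 genes at 0.95 (standard error 0.090, edgeR adjusted p = 1.5e-08), or 1.94 times the control level. The lowest treated sample was 35.3 CPM above the highest control, and the log2 fold change stayed between 0.90 and 1.02 with each sample left out.

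No partner of Herpud1 in the HRD1 complex passed the test. Syvn1, the gene of the HRD1 ligase itself, had a log2 fold change of 0.03 (95% confidence interval -0.18 to 0.23), and Sel1l, its scaffold, had 0.02 (-0.16 to 0.20). Syvn1, with 467 to 550 counts per library, overlaps Mrpl49 on the other strand, which had 445 to 536. It shares with the transcripts of Mrpl49 1.99% of the 75-nt windows at its 3′ end. Derl2, with 653 to 788 counts, overlaps Mis12, which had 140 to 194. The derlins, candidates for the channel, had -0.03 for Derl1, 0.02 for Derl2 and 0.04 for Derl3, the last at only 42 to 71 counts per library and with an interval of -0.51 to 0.58. Os9 and Erlec1, the lectins that recognise trimmed glycans, had -0.11 and 0.08. Edem1, Edem2 and Edem3, which trim mannose from misfolded glycoproteins, had 0.22, -0.02 and 0.14, and the mannosidase gene Man1b1 had 0.05. The extraction ATPase p97 (Vcp) had 0.07 (-0.06 to 0.20) and its membrane anchor Selenos 0.03 (-0.10 to 0.16). None of these 13 passed the test, with adjusted p from 0.231 in Edem1 to 0.959 in Derl3, 0 at an unadjusted p below 0.05 and 0 with DESeq2. In 10 of the 13 the 95% confidence interval of the log2 fold change lay within 0.3 of 0, which is below the 0.81 of Manf and the 0.95 of Herpud1. Smaller called rises, such as 0.23 in Uggt1, 0.25 in Pdia6 and 0.27 in Pdia3, lie within that limit. The upper limits of Os9 (0.08), Derl1 (0.12), Selenos (0.16), Derl2 (0.20), Sel1l (0.20) and Vcp (0.20) were below these called rises. Those of Syvn1 (0.23), Edem2 (0.24) and Man1b1 (0.26) lay among them. Those of Erlec1 (0.30), Edem3 (0.39), Edem1 (0.46) and Derl3 (0.58) were above, so rises of that size are not excluded there. The interval of Edem1 was -0.007 to 0.46. The signs of Syvn1, Sel1l, Derl2, Derl3, Selenos and Man1b1 turned with total-count scaling. Herpud1 and the 13 other genes summed to 1437, 1499.6 and 1479 CPM in the controls and 1524, 1546 and 1591 CPM after IL-1β, a ratio of means of 1.06, against 1.25 for the HSP70 and HSP90 system.

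**Figure D4:**
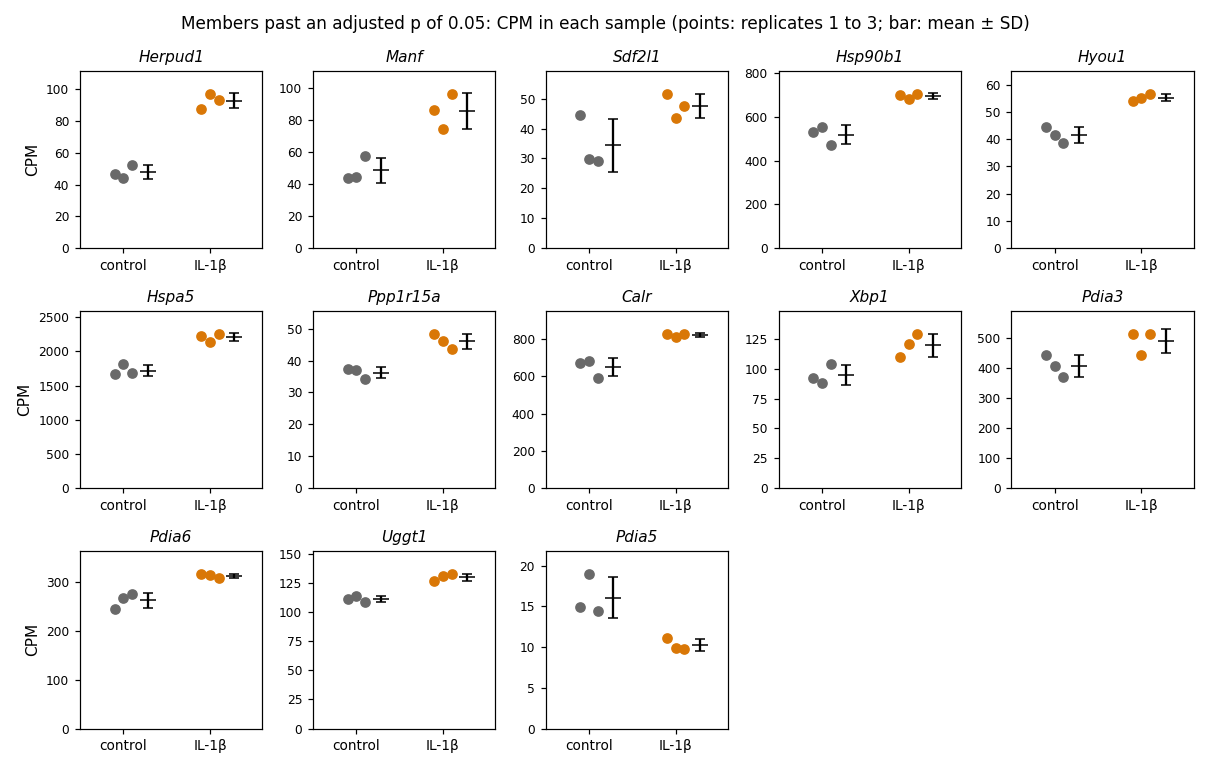
CPM in each sample for the 13 genes past an adjusted p of 0.05 (points, replicates 1 to 3 of control in grey and of IL-1β in orange; bars, mean ± SD; each axis starts at 0), in order of their log2 fold change. Herpud1 rises from 44.4 to 52.6 CPM in the controls to 87.9 to 97.2 CPM, Sdf2l1 is the single gene of the 13 whose groups overlap, and Pdia5 is the single gene that falls.

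No sensor mRNA, of Ern1, Eif2ak3, Atf6 or Atf6b, passed the test. Ern1, which encodes IRE1α, had 7.23, 7.24 and 6.34 CPM in the controls and 6.83, 5.85 and 5.66 CPM after IL-1β, with overlapping groups and a log2 fold change of -0.18 (-0.66 to 0.30). Eif2ak3, which encodes PERK, had 17.5, 19.9 and 19.4 CPM and 19.7, 19.3 and 14.6 CPM, and its log2 fold change of -0.09 (-0.40 to 0.22) became 0.043 without IL-1β replicate 3, the lowest sample. Neither sensor kinase passed the test, at adjusted p of 0.712 and 0.798 from edgeR. Atf6 had 64.5, 61.3 and 55.1 CPM in the controls and 69.95, 69.5 and 69.9 CPM after IL-1β. Its groups did not overlap, but the change of 0.21 on the log2 scale (standard error 0.089) reached an adjusted p of 0.136. The 95% confidence interval was 0.03 to 0.39, with an unadjusted p of 0.026 from edgeR. Atf6b, the homologue of Atf6, had 51.3, 58.1 and 53.1 CPM and 61.4, 59.7 and 59.2 CPM, likewise without overlap. Its log2 fold change was 0.15 (-0.04 to 0.33), with an adjusted p of 0.356 from edgeR. The ATF6 genes thus lay above the controls in every treated sample without passing the test.

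Downstream of the sensors, 2 genes passed. Xbp1, the target of IRE1, had 92.4, 87.5 and 104 CPM in the controls and 109, 120.4 and 129 CPM after IL-1β. The treated samples were all above the controls, with a log2 difference of 0.34 ± 0.084 (SE, adjusted p = 0.0061 with edgeR) that had an adjusted p of 0.0602 without IL-1β replicate 3. Ppp1r15a encodes GADD34, the stress-induced subunit of the phosphatase that reverses the PERK signal. It had 37.3, 37.1 and 34.2 CPM in the controls and 48.3, 46.2 and 43.5 CPM after IL-1β, with no overlap and a log2 difference of 0.34 ± 0.10 (SE, adjusted p = 0.023 with edgeR). This call was lost without control replicate 3 (0.0964), IL-1β replicate 1 (0.098) or IL-1β replicate 2 (0.07) and with total-count scaling (0.0594). The annotated interval of Ppp1r15a touches that of Tulp2, which had 24 to 75 counts per library, on the other strand.

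Ppp1r15b encodes CReP, the constitutive counterpart of GADD34, and had 101, 96.3 and 105 CPM in the controls and 113, 115 and 109 CPM after IL-1β. Its groups did not overlap either, and the change of 0.16 on the log2 scale reached an adjusted p of 0.191 from edgeR. The difference between Ppp1r15a and Ppp1r15b was not tested. Wfs1, the gene of the ER membrane protein wolframin, had 1.41, 3.13 and 5.84 CPM in the controls and 5.02, 4.61 and 5.57 CPM after IL-1β. The controls spread over the range of the treated samples and below it, and at 15 to 60 counts per library its log2 fold change of 0.56 had an interval of -0.19 to 1.31 and was 0.19 without control replicate 1 and 1.147 without control replicate 3. Of these 8 genes, 2 were higher and 0 lower (0 lower also at an unadjusted p below 0.05 and with DESeq2), with a median log2 fold change of 0.19. The shares over all genes tested were 6.97% higher and 6.44% lower.

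Other ER quality control genes were listed from the same pathways: 20 disulfide and prolyl isomerases, 16 chaperones and glycan-processing genes, 22 ERAD genes and 9 receptors of ER-phagy. Of these 67 genes, 63 were tested, and 1 (1.59%) was higher and 2 (3.17%) lower, against 6.97% and 6.44% of all genes tested. The median log2 fold change was -0.010, against -0.002 over all genes. The gene that rose was Fam134b, whose product marks ER sheets for autophagy, from 97.04, 87.5 and 89.8 CPM in the controls to 128, 125 and 125 CPM after IL-1β, with no overlap, a log2 difference of 0.46 ± 0.076 (SE, adjusted p = 7.8e-05 with edgeR). Its homologues Fam134a and Fam134c had log2 fold changes of -0.05 and -0.19 and did not pass (adjusted p = 0.796 and 0.316). Qsox1, a sulfhydryl oxidase of the secretory pathway, fell from 300.3, 288 and 269.6 CPM to 240.4, 219 and 222 CPM, a log2 fold change of -0.33 (adjusted p = 0.00105). Svip, a small inhibitor of ERAD that binds p97, fell by 0.81 on the log2 scale (adjusted p = 0.0254), from 12.7 ± 3.95 CPM (SD, n = 3) in the controls, with control 1 below the highest treated sample. The count of lower genes was 1 without control replicate 2, control replicate 3 or IL-1β replicate 2, and that of higher genes was 2 without control replicate 1. By edgeR, 13.4% of all genes tested passed in either direction. Of the 15 other chaperones and glycan-processing genes tested, 0 passed with edgeR and 0 at an unadjusted p below 0.05. Among them, Sil1, the second exchange factor of BiP, had a log2 fold change of -0.001, Ganab, glucosidase II of the lectin cycle, -0.07, and Mogs, glucosidase I, 0.15. Ppib, the ER cyclophilin, had 0.004.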

How the data were processed

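Primary mouse hepatocytes, 3 control and 3 IL-1β samples grouped by their titles, were sequenced by QuantSeq 3′ mRNA-Seq. Per the labels, the authors aligned reads with Bowtie2 (builds mm10 and GRCm38 named in the submitters' processing notes) and normalised with edgeR. The counting tool is not given in the sources used here. The raw counts per gene deposited by the authors were used. Their log2 normalized values, group averages, fold changes and p-values were not. The series text counts 2 samples in each group while naming 3. The table holds 3, all used here.

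Counts were filtered with filterByExpr, scaled by TMM and tested with the quasi-likelihood test of edgeR 4.0.16 in R 4.3.3, and p-values were adjusted by Benjamini-Hochberg over 11657 genes. The test was tried on simulated data. The standard error is the log2 fold change divided by the root of F. Alternatives used DESeq2 1.42.0 and limma 3.58.1. Motifs were searched with Python 3.11.15. No protein sequences were used here. Values of all samples are given for the tested sensors and, in each other role, for up to 5 called genes with the largest change. Other values were chosen after they were seen. The genes, lists and tests were chosen with earlier results of these data known.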

Additional observations from a re-analysis of the deposited data

How the results depend on the processing

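The 12 genes called higher, the 1 called lower and the median log2 fold change of 0.14 were recomputed under 10 alternatives with all samples and 6 with a sample left out. The count of higher genes was 4 with a test on each gene's own variance and 2 with a further limit of 1.5-fold, which is stricter by construction, and 8 to 12 otherwise. The count of lower genes was 2 with DESeq2, upper-quartile scaling, total-count scaling and the replicate block, the added gene being Dnajc3, and was 1 with a test on each gene's own variance, which called Dnajc3 and not Pdia5. The median was 0.11 with upper-quartile scaling and 0.089 with total-count scaling, which moved the median of all genes to -0.055. With each sample left out in turn, 8 to 12 genes were higher, 0 to 1 lower (2 to 3 at an unadjusted p below 0.05 with edgeR), and the median was 0.10 to 0.16. The lower call was lost without control replicate 2 or IL-1β replicate 3. For the 63 other ER genes, 1 higher and 2 lower in the text, a test on each gene's own variance gave 0 lower (2 at an unadjusted p below 0.05), an adjusted p below 0.01 gave 1 lower, the fold change over 1.5 gave 0 higher (2 at an unadjusted p below 0.05 with edgeR) and 1 lower, upper-quartile and total-count scaling gave 3 lower, and leaving out a sample gave 1 to 2 higher and 1 to 2 lower. Over all genes the calls numbered 546 with a test on each gene's own variance, 769 with the fold change over 1.5, 996 at an adjusted p below 0.01 and 1131 to 1596 with a sample left out, against 1563.

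Signs turned only in genes that were not called. With upper-quartile scaling they did for Dnajb11 (-0.027), Syvn1 (-0.0016), Sel1l (-0.0064) and Derl2 (-0.0082), and with total-count scaling for Dnajb11 (-0.052), Syvn1 (-0.027), Sel1l (-0.032), Derl2 (-0.034), Derl3 (-0.017), Selenos (-0.024) and Man1b1 (-0.0074). With a sample left out, the ranges spanned 0 for Eif2ak3 (-0.16 to 0.043), Dnajb11 (-0.020 to 0.026), Pdia4 (-4.6e-05 to 0.22), Syvn1 (-0.020 to 0.10), Sel1l (-0.019 to 0.069), Edem2 (-0.072 to 0.066), Derl1 (-0.078 to 0.030), Derl2 (-0.0056 to 0.063), Derl3 (-0.13 to 0.26), Erlec1 (-0.0020 to 0.16), Selenos (-0.0091 to 0.051) and Man1b1 (-0.027 to 0.11). Among the single genes, 28 values became weaker and 5 stronger with all samples, and 18 weaker with a sample left out. Deviations from the group means of samples with the same replicate number correlated by 0.075, 0.027 and -0.005, none above 0.1, so that samples were not taken as paired by number. Not every sample correlated best with its own number. With the replicate number as a block, 12 genes were higher and 2 lower, and 1671 of all genes were called. The cause of these differences was not tested. Depth limits Wfs1, Ero1lb, Derl3 and Ern1, which had under 100 counts in every library.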
